A study of Mus musculus with 7 samples.

Results

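B cell and plasma cell genes were examined as a set of 8 genes named by symbol, Cd79a, Cd79b, Ms4a1, Pax5, Ighm, Igkc, Jchain and Mzb1, of 53465 gene identifiers in the table of estimated counts. They were chosen by name and not by a measured value, though with earlier results of these data known, and genes with low counts were kept. All 8 were matched by identifier in all 7 libraries.

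The EMT6 line is a mammary carcinoma of the mouse that grows in BALB/c animals. Female BALB/c mice aged 6 to 8 weeks (Balb/cAnNCr) received 500000 EMT6 cells in the mammary fat pad, and antibody was given from day 1 at 250 μg per mouse every 3 days until endpoint. The 3 EMT6-P tumors came from mice given an isotype control antibody. The 3 EMT6-PTR tumors are primary tumors labelled as anti-PD-L1 resistant, from mice given αPD-L1, an antibody against the immune checkpoint ligand PD-L1, through to endpoint. The single metastasis also came from the anti-PD-L1 resistant arm, and its labels call it breast tumor tissue like the others, with neither a site nor a replicate number. The labels name no engineered allele in any group, all tumors were grown from the same cell line in mice with their own immune system, and RNA was taken from whole tissue, so that the B lineage transcripts can only be read in bulk. The study's legends call its replicates technical unless they say otherwise, and neither they nor the labels say that the 3 libraries of a group came from separate mice. Each library is called a tumor here as its label does, and p-values measure only the spread between these samples, which may be technical. Libraries of a group differed by more than counting noise, with a chi-square per gene of 17.5 to 23.5 between EMT6-P libraries and 264 to 469 between EMT6-PTR libraries.

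B cells bind antigen through a B cell receptor, a membrane immunoglobulin of paired heavy and light chains that signals through CD79A and CD79B. An activated B cell can switch its heavy chain from IgM to IgG, IgA or IgE and can mature into a plasma cell, which lowers its B cell surface program and devotes its secretory machinery to antibody. Immunoglobulin transcripts are therefore very abundant in plasma cells, and each clone carries its own heavy and light chain variable segments. In tumors, B cells and plasma cells often gather with T cells in lymphoid aggregates.

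Total estimated counts were 20430110 to 25213472 per library, and 0 counts in a library allow up to 3 counts at this depth (counting error only). Levels are given as CPM, counts scaled to the size of the library with upper-quartile factors. Several libraries stood apart. In EMT6-PTR replicate 2, CT010467.1, annotated as ribosomal RNA, took 13.8% of all counts, against 0.433% to 1.35% in the other 6 libraries. In EMT6-PTR replicate 3, the 5 epithelial markers summed to 595 CPM, against 2100 to 2350 CPM in the other primary tumors. In the metastasis, the 6 lung epithelial markers summed to 8230 CPM, against 1.45 to 26.1 CPM in the primary tumors, and the surfactant gene Sftpc alone reached 2350 CPM.

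In these whole-tissue libraries, 7 of the 8 genes had their highest primary-tumor level in EMT6-PTR replicate 2 and Cd79a had it in EMT6-PTR replicate 3. EMT6-PTR replicate 1 and the EMT6-P tumors were highest for none. Of 19002 genes with at least 10 counts in a library, 16.3% peaked in EMT6-PTR replicate 2 and 33.3% in EMT6-PTR replicate 3. All 8 genes were higher in the metastasis than in any of the 6 primary tumors, as were 26.2% of those genes. No member passed the test between EMT6-PTR and EMT6-P at an adjusted p of 0.05 (edgeR, 0 of the 3 members that passed the filter on low counts). The same fit called 0.0% of all 15645 genes tested. An unadjusted p under 0.05 was reached by 11.4% of these genes, 5.84% higher and 5.57% lower in EMT6-PTR, with 0 members among them. DESeq2 called 281 of 13694 genes (2.05%) and limma-voom 0. DESeq2 gave Ighm an adjusted p of 0.936 and left Cd79b and Igkc without an adjusted p.

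**Figure D1:**
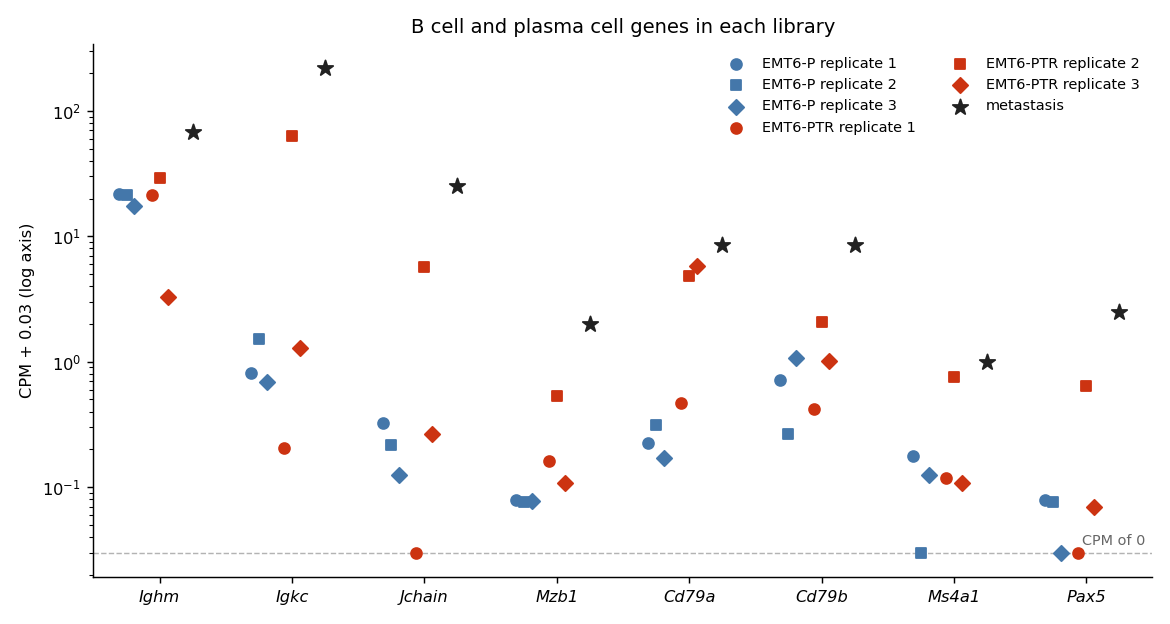
CPM of each of the 8 genes in each library, with 0.03 added, on a log axis; blue marks the 3 EMT6-P tumors, red the 3 EMT6-PTR tumors (shapes give the replicate) and the black star the metastasis. EMT6-PTR replicate 2 is the highest primary tumor for every gene but Cd79a, and the metastasis is highest for all 8.

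Igkc encodes the constant region of the kappa light chain, carried by most mouse antibodies (ENSMUSG00000076609.2, chr6:70726435-70726966, plus strand, GRCm38, a single exon). It measured 0.78, 1.50 and 0.66 CPM in EMT6-P replicates 1 to 3, from 16, 32 and 14 counts. In EMT6-PTR replicates 1 to 3 it measured 0.175, 63.2 and 1.25 CPM, from 4, 1134 and 32 counts. In the metastasis it reached 219 CPM, from 5484 counts. A single EMT6-PTR tumor was thus far above every EMT6-P tumor, another was below all of them, and the groups overlapped. The fitted log2 fold change was 4.45 with an SE of 1.93 (edgeR, adjusted p = 0.444). It was -0.44 (adjusted p = 0.824) without EMT6-PTR replicate 2 and 1.20 with limma-voom, and the adjusted p over all alternatives ran from 0.194 to 0.865. In bulk tissue, fewer cells of a type and less RNA per cell cannot be told apart, here and for every gene that follows.

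Ighm encodes the constant region of the IgM heavy chain (ENSMUSG00000076617.9, chr12:113418558-113422730, minus strand), made by B cells before class switching. It behaved unlike Igkc. It measured 21.8, 21.5 and 17.4 CPM in the EMT6-P tumors, from 448, 461 and 369 counts. In EMT6-PTR replicates 1 to 3 it measured 21.3, 28.9 and 3.24 CPM, from 489, 518 and 83 counts. The metastasis had 68.2 CPM. Of the 6 primary tumors, 5 lay between 17.4 and 28.9 CPM and EMT6-PTR replicate 3 stood below them. The group means were 20.3 ± 2.48 CPM in EMT6-P and 17.8 ± 13.2 CPM in EMT6-PTR (SD, n = 3 each). The log2 fold change was -0.19 with an SE of 0.68 (edgeR, adjusted p = 0.925), changing to 0.31 without EMT6-PTR replicate 3, with adjusted p from 0.365 to 0.978 over the alternatives.

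The balance of the light and heavy chain genes differed between tumors even where Ighm did not. There were 0.0357, 0.0694 and 0.0379 Igkc counts per Ighm count in the EMT6-P tumors. The ratio was 0.00818, 2.19 and 0.386 in EMT6-PTR replicates 1 to 3, and 3.21 in the metastasis. EMT6-PTR replicates 2 and 3 thus had more Igkc per Ighm than any EMT6-P tumor and EMT6-PTR replicate 1 had less. Per kilobase of exon, the EMT6-P tumors held 9.23 to 11.6 CPM of Ighm and 1.24 to 2.81 CPM of Igkc, an order that was inverted in EMT6-PTR replicate 2 (15.3 and 119), in EMT6-PTR replicate 3 (1.72 and 2.35) and in the metastasis (36.2 and 412).

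Jchain encodes the chain that joins IgM and IgA into polymers in secreting cells (ENSMUSG00000067149.6, chr5:88519809-88527891, minus strand). Its counts were 6, 4 and 2 in EMT6-P and 0, 101 and 6 in EMT6-PTR. These are 0.292, 0.187 and 0.0943 CPM in EMT6-P, against 0, 5.63 and 0.234 CPM in EMT6-PTR. The metastasis had 633 counts, or 25.3 CPM. As with Igkc, EMT6-PTR replicate 2 lay above the other 5 primary tumors, which overlapped. In a fit without a filter on low counts, the log2 fold change was 3.31 with an SE of 1.56 (edgeR, adjusted p = 0.655), and -0.63 without EMT6-PTR replicate 2, with adjusted p from 0.164 to 0.929 over the alternatives.

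Mzb1 encodes an endoplasmic reticulum cochaperone that helps assemble and secrete immunoglobulin in marginal zone B cells and plasma cells. It had 1 count in each EMT6-P tumor, 3, 9 and 2 counts in EMT6-PTR replicates 1 to 3 and 49 counts in the metastasis. In CPM these are 0.0487, 0.0467 and 0.0472 in EMT6-P, then 0.131, 0.501 and 0.0781 in EMT6-PTR, and 1.96 in the metastasis. Its groups did not overlap, with EMT6-PTR higher, at 1 count each against 3, 9 and 2. The fit without a filter gave a log2 fold change of 2.14 with an SE of 1.03 (edgeR, adjusted p = 0.655), and 1.05 without EMT6-PTR replicate 2, sizes that at such counts depend on the fit's prior. Exons of Mzb1 overlap exons annotated to SPATA24 on the same strand, so that reads may be shared between them.

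Cd79a encodes the Igα signalling chain of the B cell receptor (ENSMUSG00000003379.7, chr7:24897381-24902197, plus strand). Its estimated counts were 3.58, 6 and 3 in EMT6-P, then 10, 85.7 and 148 in EMT6-PTR, and 214 in the metastasis. The levels were 0.195, 0.28 and 0.141 CPM in EMT6-P, 0.436, 4.79 and 5.78 CPM in EMT6-PTR and 8.55 CPM in the metastasis. Every EMT6-PTR tumor lay above every EMT6-P tumor, with replicate 1 only slightly so. Cd79a and Mzb1 were the 2 of 8 members whose groups did not overlap with EMT6-PTR higher, which held for 9.19% of the 19002 genes with at least 10 counts in a library.

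Cd79a did not pass the filter on low counts. Without the filter, its log2 fold change was 4.13 with an SE of 0.91 (edgeR, adjusted p = 0.642). An unadjusted p under 0.05 with EMT6-PTR higher was reached by 4.59% of the 28451 genes in that fit, and among the members by Cd79a and Igkc. The adjusted p depended on the method and on 1 tumor. It was 0.00396 with DESeq2 and 0.0079 with edgeR without EMT6-PTR replicate 1, and it ran from 0.0913 to 0.797 when any other primary tumor was left out. The log2 fold change stayed between 3.37 and 4.66 over all 11 alternatives and was 3.91 without EMT6-PTR replicate 2.

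Cd79b encodes the partner chain, Igβ (ENSMUSG00000040592.11, chr11:106311341-106314762, minus strand). It had 14, 5 and 22 counts in EMT6-P, 9, 37 and 25 in EMT6-PTR and 214 in the metastasis. The levels were 0.682, 0.234 and 1.04 CPM in EMT6-P and 0.393, 2.06 and 0.977 CPM in EMT6-PTR. The groups overlapped, and the log2 fold change was 0.79 with an SE of 0.75 (edgeR, adjusted p = 0.669), and 0.08 without EMT6-PTR replicate 2. The 2 chains work as a dimer, yet their counts were not in a steady ratio. There were 5.92 counts of Cd79a per count of Cd79b in EMT6-PTR replicate 3 and 2.32 in replicate 2, against 1.00 in the metastasis and 0.136 to 1.2 in the EMT6-P tumors and EMT6-PTR replicate 1. EMT6-PTR replicate 3 was therefore the tumor with the most Cd79a among the 6 but with 32 counts of Igkc, 6 of Jchain, 2 of Ms4a1 and 1 of Pax5.

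Ms4a1 encodes the B cell surface protein CD20 (ENSMUSG00000024673.9, chr19:11249675-11266241, minus strand). It had 3, 0 and 2 counts in EMT6-P, 2, 13 and 2 in EMT6-PTR and 24 in the metastasis, at most 0.146 CPM in any primary tumor but EMT6-PTR replicate 2, which had 0.724 CPM. Pax5 encodes the transcription factor that maintains B cell identity and is switched off in plasma cells (ENSMUSG00000014030.15, chr4:44524757-44710487, minus strand). It had 1, 1 and 0 counts in EMT6-P, 0, 11 and 1 in EMT6-PTR and 62 in the metastasis. For both genes, 5 of the 6 primary tumors lay at or under 3 counts, the limit that a count of 0 allows, and EMT6-PTR replicate 2 was the exception. The fits without a filter gave log2 fold changes of 1.78 for Ms4a1 and 2.50 for Pax5 (edgeR, adjusted p = 0.655 for each), which became 0.06 and -0.51 without EMT6-PTR replicate 2. Exons of Pax5 overlap antisense transcripts, and the strand setting used in counting is not given in the sources used here.

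**Figure D2:**
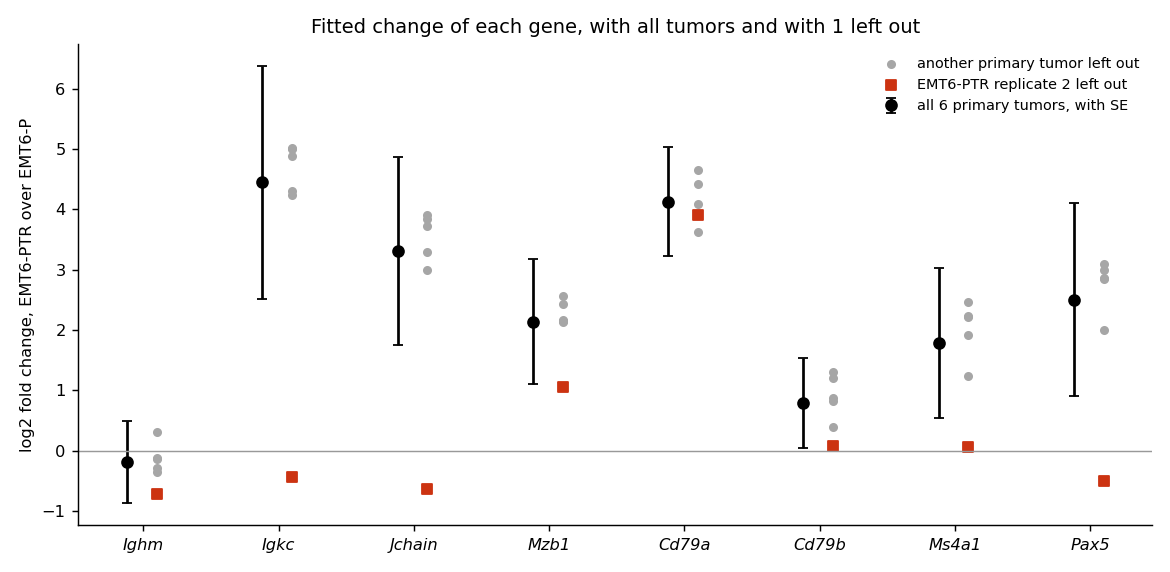
Fitted log2 fold change of each gene, EMT6-PTR over EMT6-P (edgeR; without the filter on low counts for the 5 genes below it), with its SE (black), with EMT6-PTR replicate 2 left out (red squares) and with each other primary tumor left out (grey). Without that tumor Igkc, Jchain and Pax5 change sign and Cd79b, Ms4a1 and Mzb1 stand at 0.08, 0.06 and 1.05, while Cd79a remains at 3.91.

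The metastasis was described by its values, since it is 1 library. A level at least 4-fold above the EMT6-PTR mean was found for 5 of the 8 members and for 10.2% of the 19002 genes with at least 10 counts in a library. Jchain was 13.0-fold, Pax5 11.4-fold, Igkc 10.2-fold, Mzb1 8.27-fold and Cd79b 7.48-fold above that mean. Ighm at 3.83-fold, Ms4a1 at 3.24-fold and Cd79a at 2.33-fold lay under the limit. Compared with the single highest primary tumor the margins were smaller, from 1.32-fold for Ms4a1 to 4.5-fold for Jchain. Per kilobase of exon, the order in the metastasis was Igkc (412 CPM), Ighm (36.2), Jchain (10.1), Cd79b (5.98), Cd79a (5.87), Mzb1 (1.61), Pax5 (0.28) and Ms4a1 (0.155). The lung and the neutrophil genes were also high in this library (summed neutrophil markers of 2980 CPM against 25.1 to 58.5 CPM in the primary tumors). In EMT6-PTR replicate 2 the neutrophil markers summed to 46.3 CPM, within the EMT6-P range, while the members summed to 106 CPM against 19.5 to 24.0 in EMT6-P. The part of the host tissue in the members' levels was not tested.

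The other heavy chain constant genes report which antibody classes were being transcribed. Ighg1, the constant region of IgG1 (ENSMUSG00000076614.7, chr12:113325240-113330523), had 5, 11 and 1 counts in EMT6-P, 0, 1466 and 62 in EMT6-PTR and 5079 in the metastasis. Its log2 fold change between the primary groups was 6.67 with an SE of 2.41 (edgeR, adjusted p = 0.427), and it ran from 2.16 to 7.54 with 1 tumor left out. Ighg2b had 0, 2 and 1 counts in EMT6-P, 0, 222 and 0 in EMT6-PTR and 95 in the metastasis, so that it was higher in EMT6-PTR replicate 2 than in the metastasis. Igha, the constant region of IgA, had 7, 31 and 22 counts in EMT6-P, 5, 80 and 15 in EMT6-PTR and 2314 in the metastasis.

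The remaining constant genes were low in the primary tumors. Ighd, the IgD constant region, had 33 counts in EMT6-PTR replicate 2, at most 9 in the other primary tumors and 108 in the metastasis. Ighg2c, Ighg3 and Ighe had at most 7.01, 3 and 3 counts in a primary tumor and 124, 51 and 17 in the metastasis. The lambda light chain genes Iglc1, Iglc2 and Iglc3 had at most 6 counts in any primary tumor and 80, 123 and 48.6 in the metastasis. Constant genes of 1 class are close in sequence, and reads that fit several were divided by estimation. Of the 12 constant genes, 4 passed the filter, and the median log2 fold change of those 4 was 2.66, against 0.03 over all genes tested. EdgeR called 0 of the 4, and 1 (Ighg1) had an unadjusted p under 0.05 with EMT6-PTR higher, as did 5.84% of all genes tested. Of the 12, 11 peaked among primary tumors in EMT6-PTR replicate 2, as did 16.3% of genes with at least 10 counts in a library.

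Shares within a library do not depend on scaling. Ighm made up 96.8%, 89.9% and 91.8% of heavy chain constant counts in EMT6-P replicates 1 to 3. In EMT6-PTR replicates 1 to 3 the share was 97.4%, 22.2% and 51.6%, with 95% exact binomial intervals of 95.6% to 98.6%, 20.5% to 24.0% and 43.6% to 59.5% (counting error only). In the metastasis it was 18.0%. EMT6-PTR replicates 2 and 3 lay below all EMT6-P tumors and replicate 1 above them. The means of 92.8% ± 3.56 and 57.1% ± 37.9 (SD, n = 3 each) were compared by a two-sided exact permutation test (p = 0.4, adjusted p = 0.6 over 4 shares and diversity measures), a design that cannot give a p below 0.1.

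Ighm itself was not low in EMT6-PTR replicate 2 (28.9 CPM) or the metastasis (68.2 CPM), where its share was smallest. Of heavy chain constant counts, 62.9% were Ighg1 in EMT6-PTR replicate 2, 38.5% in EMT6-PTR replicate 3 and 53.5% in the metastasis, against at most 2.14% in the EMT6-P tumors and 0 of 502 counts in EMT6-PTR replicate 1. Igha held 24.4% in the metastasis and 3.43% in EMT6-PTR replicate 2. Ighg2b held 9.52% in EMT6-PTR replicate 2 and 1.00% in the metastasis. The lambda share of light chain counts was 20.0%, 5.88% and 17.6% in EMT6-P, from totals of 20, 34 and 17 counts. It was 0 of 4 counts, 0.961% and 3.03% in EMT6-PTR and 4.39% in the metastasis. The EMT6-PTR shares lay below the EMT6-P shares (exact permutation p = 0.1, the smallest the design allows, adjusted p = 0.4), with 2 to 4 lambda counts behind each EMT6-P value. The 95% exact intervals reach 60.2% for EMT6-PTR replicate 1 and 15.8% for replicate 3, so that counting error does not place these tumors below EMT6-P.

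**Figure D3:**
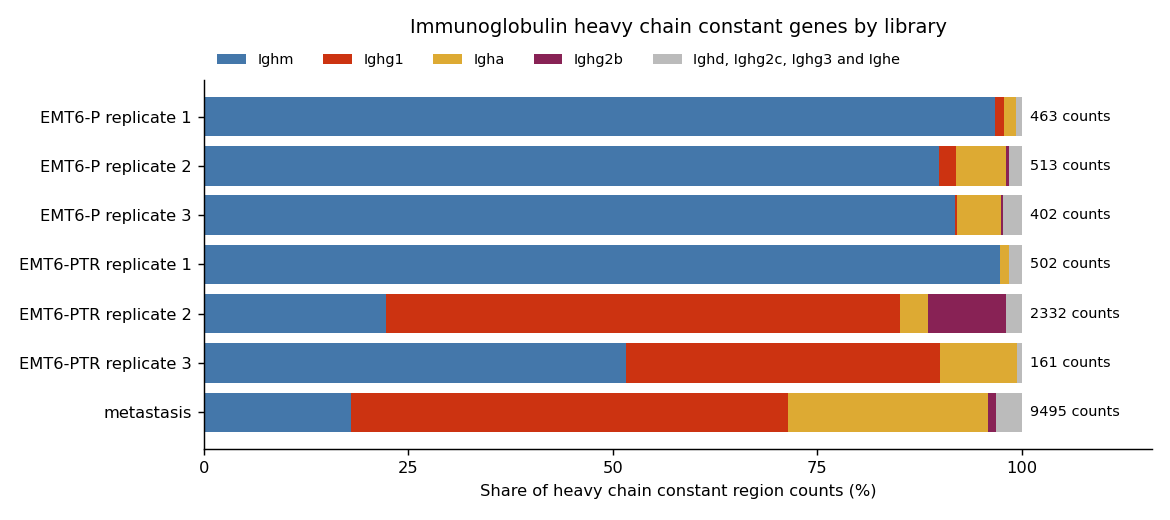
Share of heavy chain constant region counts on each gene, in percent, in each library, with the total counts at the right. Ighm takes 89.9% to 97.4% in the EMT6-P tumors and EMT6-PTR replicate 1, while Ighg1 takes 62.9%, 38.5% and 53.5% in EMT6-PTR replicate 2, EMT6-PTR replicate 3 and the metastasis.

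Counts on variable segments show over how many segments the immunoglobulin transcripts were spread. They do not show how a segment was joined, so rearranged chains and unrearranged transcripts cannot be told apart. Igkv is the family of kappa variable segments, of which 160 were in the table. Its total was 5, 11 and 1 counts in EMT6-P, 2, 434 and 18 counts in EMT6-PTR and 1917.3 counts in the metastasis. Igkv1-117 was the leading segment in the metastasis with 905 counts, 47.2% of the family (95% interval 45.0% to 49.5%). It also led in EMT6-PTR replicate 3 with 8 of 18 counts, and it had 37.8 counts in EMT6-PTR replicate 2. Igkv14-111 led in EMT6-PTR replicate 2 with 96 counts, 22.1% of the family, and had 169 counts in the metastasis.

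Ighv, the heavy chain family with 185 segments in the table, had at least 45 counts in every tumor, where Igkv had as few as 1. Its total was 124, 121 and 89 counts in EMT6-P, 115, 347 and 45 in EMT6-PTR and 1061 in the metastasis. Ighv1-9 led in the metastasis with 411 counts, 38.7% of the family, and had 2 and 3 counts in EMT6-PTR replicates 2 and 3 and 0 in the other 4 primary tumors. Ighv3-2, annotated as a pseudogene in this reference, led in EMT6-PTR replicate 2 with 43.8 counts and had 76.8 in the metastasis and 0 in the other 5 tumors. The EMT6-P tumors and EMT6-PTR replicates 1 and 3 instead had most of their counts on the same 5 segments. Ighv14-1, Ighv9-3, Ighv15-1, Ighv12-1 and Ighv14-4, named after their values were seen, held 79.6%, 71.8% and 86.5% of the family in EMT6-P, and 79.5%, 16.5% and 58.9% in EMT6-PTR replicates 1 to 3. They held 1.51% in the metastasis.

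The ends of 4 of these segments are shown because the libraries differed in their counts on these segments. Each is the last 120 bases of the segment's final exon in the GENCODE M21 annotation of GRCm38, a C57BL/6 reference, whereas the mice were BALB/c. The capitals mark the conserved codons for Tyr-Tyr-Cys, which end the third framework region just before the third complementarity-determining region. Igkv1-117 (chr6:68121708-68121827, plus strand) and Ighv1-9 (chr12:114583569-114583688, minus strand) led in the metastasis, Igkv14-111 (chr6:68256750-68256869, plus strand) led the kappa family in EMT6-PTR replicate 2, and Ighv14-1 (chr12:113931953-113932072, minus strand) led in EMT6-P replicates 2 and 3.
Igkv1-117: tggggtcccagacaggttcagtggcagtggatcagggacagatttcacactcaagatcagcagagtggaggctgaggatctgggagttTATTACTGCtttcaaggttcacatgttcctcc
Igkv14-111: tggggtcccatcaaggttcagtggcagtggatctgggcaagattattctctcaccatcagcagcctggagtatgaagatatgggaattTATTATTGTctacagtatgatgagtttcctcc
Ighv1-9: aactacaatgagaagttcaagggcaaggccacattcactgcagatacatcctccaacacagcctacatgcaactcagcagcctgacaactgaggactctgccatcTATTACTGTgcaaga
Ighv14-1: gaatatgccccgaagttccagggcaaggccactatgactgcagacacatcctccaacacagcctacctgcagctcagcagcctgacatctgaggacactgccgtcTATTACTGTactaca

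The 5 shared heavy chain segments lie within 244.9 kilobases of the locus (chr12:113931953-114176867), a stretch that holds 19 annotated Ighv segments, and 2 of the 5 (Ighv12-1 and Ighv15-1) are annotated as pseudogenes. This stretch held 123, 104.5, 86 and 110.6 of the 124, 121, 89 and 115 Ighv counts in the EMT6-P tumors and EMT6-PTR replicate 1. It held 36.2 of 45 counts in EMT6-PTR replicate 3, 152.6 of 347 counts in EMT6-PTR replicate 2 and 150.7 of 1061 counts in the metastasis. In the EMT6-P tumors and EMT6-PTR replicate 1, Ighm took at least 89.9% of heavy chain counts and Igkc had 4 to 32 counts.

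Evenness over segments was summarised as the effective number, the inverse of the Simpson index, which equals the number of segments when all have the same count. For Ighv it was 6.67, 7.43 and 6.08 in EMT6-P, 6.56, 20.2 and 6.81 in EMT6-PTR and 6.06 in the metastasis. EMT6-PTR replicate 2 had the highest value. The place of the metastasis depended on the measure. The exponential of the Shannon entropy, which gives rare segments more weight, was 19.1 there, above the 8.25, 9.68 and 7.44 of EMT6-P, and 8.36, 29.4 and 9.05 in EMT6-PTR. In the effective number of Ighv segments, the difference between the group means was 4.47 (exact permutation p = 0.6, adjusted p = 0.6). For Igkv the effective number was 10.7 in EMT6-PTR replicate 2 and 4.04 in the metastasis, with under 20 counts in each other tumor. These counts are too few for a comparison (exact permutation p = 0.6). Near-identical segments share reads by estimation, so both measures carry that uncertainty.

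**Figure D4:**
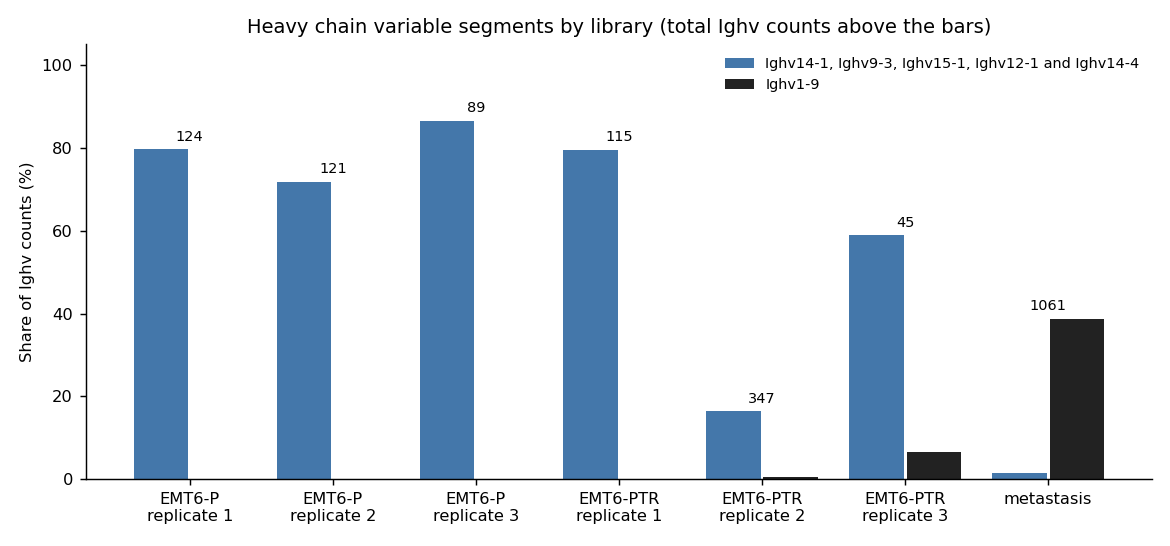
Share of all Ighv counts, in percent, on the 5 segments Ighv14-1, Ighv9-3, Ighv15-1, Ighv12-1 and Ighv14-4 (blue) and on Ighv1-9 (black), in each library, with the total Ighv counts above the bars. The 5 segments hold 71.8% to 86.5% in the EMT6-P tumors and 1.51% in the metastasis, where Ighv1-9 holds 38.7%.

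Other genes of the B lineage were taken from lists, of which none had a member called by edgeR at an adjusted p of 0.05. Among 15 coreceptor and signalling genes of the B cell receptor, 12 passed the filter (4 fitted higher and 8 lower in EMT6-PTR, median log2 fold change -0.04, against 0.03 over all genes tested). Several of these, such as Syk and Lyn, are kinases and adaptors that myeloid cells also use. Cd22, an inhibitory coreceptor of B cells, had 0.536, 0.701 and 0.802 CPM in EMT6-P, 0.873, 2.06 and 1.13 in EMT6-PTR and 2.8 in the metastasis (edgeR log2 fold change 0.98, SE 0.44, adjusted p = 0.45). It was the 1 gene of the 12 whose groups did not overlap, which held for 21.3% of all genes tested.

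Among 15 B cell transcription factors and other surface markers, 6 passed the filter, and all 6 were fitted higher in EMT6-PTR (median log2 fold change 0.48). Tnfrsf13c, the receptor for the B cell survival factor BAFF, had 0.536, 0.42 and 1.27 CPM in EMT6-P, 1.53, 4.23 and 5.24 in EMT6-PTR and 4.16 in the metastasis. Its groups did not overlap with EMT6-PTR higher, as for 9.52% of all genes tested, and its log2 fold change was 2.29 with an SE of 0.64 (edgeR, adjusted p = 0.421). DESeq2 called it (adjusted p = 0.0374, with up to 0.865 under other alternatives). The highest primary tumor for Tnfrsf13c was EMT6-PTR replicate 3, as for Cd79a and for 33.3% of the 19002 genes with at least 10 counts in a library. Ly6d, a surface marker of B lineage commitment that epithelial cells also carry, had 0.39, 0.234 and 1.93 CPM in EMT6-P and 0.0436, 9.19 and 2.74 in EMT6-PTR (edgeR, log2 fold change 2.21, adjusted p = 0.56). With 1 tumor left out its log2 fold change ran from 0.71, without EMT6-PTR replicate 2, to 3.65, without EMT6-P replicate 3.

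Of 7 germinal centre genes, 3 passed the filter, and all 3 were fitted lower in EMT6-PTR (median -0.04), led by S1pr2 at -0.14 (adjusted p = 0.67). Of 12 other plasma cell genes, 10 passed the filter (5 fitted higher and 5 lower, median 0.02). Txndc5 and Fkbp11, protein-folding enzymes of the endoplasmic reticulum in many secretory cells, were the 2 with an unadjusted p under 0.05, both lower in EMT6-PTR and without overlap. Over all genes tested, 5.57% were lower at that p and 11.8% were lower without overlap. Txndc5 had 231 to 240 CPM in EMT6-P and 165 to 199 in EMT6-PTR (edgeR log2 fold change -0.35, adjusted p = 0.431). Fkbp11 had 26.8 to 40.9 CPM in EMT6-P and 14.1 to 25.6 in EMT6-PTR (log2 fold change -0.69, adjusted p = 0.433). Slamf7, a surface receptor of plasma cells and other leukocytes, had 3.23 CPM in EMT6-PTR replicate 2 and 0.352 to 0.536 in the other primary tumors, so that it was high in the same tumor as Igkc (edgeR log2 fold change 1.40, adjusted p = 0.558). Of the 11 genes of this list with at least 10 counts in a library, 4 peaked in that primary tumor. They were Slamf7, Irf4 (1.06 CPM), Tent5c (18.0 CPM) and Ell2 (52.4 CPM). Of all such genes, 16.3% did. In EMT6-PTR replicate 2, Sdc1 had 660 CPM, below the 685 to 850 CPM of EMT6-P, and Prdm1 had 16.8 CPM, within the EMT6-P range of 11.1 to 33.3. Sdc1 stood at 599 CPM or more in every primary tumor, and which cells carried it was not tested.

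Among 16 factors for the survival, help and homing of B cells, 10 passed the filter (6 fitted higher and 4 lower, median 0.05). Cxcl13, the chemokine that draws B cells into follicles, had 3.02, 0.607 and 0.66 CPM in EMT6-P, 0.742, 25.4 and 24.3 in EMT6-PTR and 30.3 in the metastasis. It was high in the 2 EMT6-PTR tumors with the most Cd79a and within the EMT6-P range in replicate 1. Its log2 fold change was 3.55 with an SE of 1.28 (edgeR, adjusted p = 0.427). DESeq2 called it (adjusted p = 0.0374, with up to 0.865 under other alternatives). Tnfsf13b, which encodes BAFF, was lower in EMT6-PTR without overlap, at 31.0 to 35.1 CPM in EMT6-P and 24.3 to 27.0 in EMT6-PTR (edgeR log2 fold change -0.36, SE 0.13, adjusted p = 0.427). It was the 1 gene of the 10 that was lower without overlap, against 11.8% of all genes tested. Tnfsf13, which encodes APRIL, had 3.22 to 9.24 CPM in EMT6-P and 6.59 to 13.5 in EMT6-PTR (log2 fold change 0.87, adjusted p = 0.489).

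Markers of other cells were set beside the members. All 13 T cell markers had their highest primary-tumor level in EMT6-PTR replicate 2. Of 19002 genes with at least 10 counts in a library, 16.3% peaked there. The 13 markers summed to 35.1 CPM in that tumor, 9.72 to 15.5 CPM in the other primary tumors and 58.7 CPM in the metastasis. The 6 pan-leukocyte markers did not share this pattern, with 594 CPM in EMT6-PTR replicate 2, 555 to 623 CPM in EMT6-P and 354 CPM in EMT6-PTR replicate 3. Igkc per unit of the leukocyte gene Ptprc was 0.011 to 0.0259 in EMT6-P, 0.00209, 0.683 and 0.0379 in EMT6-PTR and 2.44 in the metastasis. EMT6-PTR replicate 3 lay above every EMT6-P tumor on this ratio but within their range in Igkc CPM. The 8 lymph node vessel and stroma markers summed to 3.88 to 7.7 CPM in EMT6-P, 9.82, 35.0 and 29.3 CPM in EMT6-PTR and 189 CPM in the metastasis. Cxcl13 made up 25.4 and 24.3 CPM of the sums in EMT6-PTR replicates 2 and 3, and Lyve1, a gene of lymphatic vessels, 155 CPM of that in the metastasis. Prox1, on the list for the same vessels, did not follow Lyve1. It had 0.24 CPM in the metastasis and 0 to 0.655 CPM in the primary tumors. The defining genes of this list, Glycam1 and Madcam1, had at most 3 counts in any library. The part of these cells in the members' levels was not tested.

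The remaining marker lists were as follows in the primary tumors. In EMT6-PTR replicate 2, plasmacytoid dendritic cell markers summed to 391 CPM, against 290 to 323 CPM in the other primary tumors. Natural killer cell markers summed to 2.01 CPM there, against 0.508 to 1.90 CPM. Bst2, Tcf4 and Pld4 made up 198, 96.5 and 93.2 of the 391 CPM. Of the 8 plasmacytoid dendritic cell markers, 5 lay above all EMT6-P tumors in EMT6-PTR replicate 2. Klk1 was instead highest in EMT6-P replicate 1 (0.536 CPM) and Cox6a2 in EMT6-PTR replicate 1 (37.0 CPM). Siglech had 0.393, 0.557 and 0.508 CPM in EMT6-PTR replicates 1 to 3 and 0.0934 to 0.146 CPM in EMT6-P. Ccr9 had 0.501 CPM in EMT6-PTR replicate 2 and 0.0781 to 0.195 CPM in the other primary tumors. Macrophage markers summed to 1460 to 1770 CPM in the primary tumors. Fibroblast markers were at 7130 CPM in EMT6-PTR replicate 2 and 11800 CPM in EMT6-PTR replicate 3, against 4830 to 6310 CPM in the other primary tumors. Adipocyte markers were at most 2.73 CPM, and skeletal muscle markers ran from 2.85 CPM in EMT6-PTR replicate 3 to 3160 CPM in EMT6-PTR replicate 1.

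The genes whose profile over the 6 primary tumors was most like the mean log2 level of Cd79b, Ighm and Igkc were found by Pearson's r over 15636 genes, as a description. They were Rn7s2, Rn7s1, n-R5-8s1, mt-Rnr1 and Mir6236, with r from 0.99 to 0.993 over 6 tumors. None is a B cell gene. They are noncoding RNA genes that were high in EMT6-PTR replicate 2, such as n-R5-8s1 at 929 CPM there against 1.79 to 16.9 CPM in the other primary tumors, and the likeness rests on that tumor. The same library thus held both the most B lineage counts among the primary tumors and the most counts on CT010467.1, and whether these are related was not tested.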

How the data were processed

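RNA was measured in 7 libraries, 3 EMT6-P, 3 EMT6-PTR and 1 metastasis, made with a stranded polyadenylated RNA kit. Per the labels and the study's methods, the authors checked reads with FastQC 0.11.5, aligned them with STAR 2.6.0a to GRCm38 with GENCODE M16 and estimated counts per gene with RSEM 1.3.1. The deposited table holds these RSEM expected counts, not normalized and partly fractional; RSEM divides reads among near-identical genes by estimation.

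Identifiers were matched without version to GENCODE M21 of the same assembly (53274 of 53465 had a symbol). Estimated counts were rounded, filtered with filterByExpr, scaled by upper quartile and compared between 3 EMT6-PTR and 3 EMT6-P with edgeR 4.0.16's quasi-likelihood test in R 4.3.3, Benjamini-Hochberg adjusted over all genes tested, with a threshold of 0.05. CPM were computed on the same scale. The metastasis was left out of the fit. Composition was compared with two-sided exact permutation tests over tumors (scipy 1.17.1). Methods were tested on simulated data. Alternatives were TMM, DESeq2 1.42.0, limma-voom (limma 3.58.1), no filter, at least 10 counts in every primary tumor, the metastasis as a further group, a replicate block and each tumor left out. For genes below the filter, these alternatives were run without it and were chosen after seeing the data.

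The members and lists were chosen with earlier results of these data known. Named genes were the members, the constant genes, up to 3 genes per B lineage list with the smallest unadjusted p, the first 2 markers of other cell types, the 5 genes most like the members, and the leading Ighv and Igkv segment in each library. Sftpc, Lyve1, Prox1, Ptprc, Syk, Lyn, Sdc1, Prdm1, Bst2 and the shared Ighv segments beyond these were named after their values were seen. So were Irf4, Tent5c, Ell2, Tcf4, Pld4, Klk1 and Cox6a2. Protein sequences were not used here.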

Additional observations from a re-analysis of the deposited data

How the results depend on the processing

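With the filter on low counts, edgeR called 0 members and 0 genes with all tumors and with each primary tumor left out. Without it, edgeR called Cd79a when EMT6-PTR replicate 1 was left out (adjusted p = 0.0079). DESeq2 called 281 genes, among them 1 of the B cell transcription factors and surface markers (Tnfrsf13c) and 1 of the survival and homing factors (Cxcl13), and the cause was not tested. With TMM, limma-voom, no filter, the stricter filter or the metastasis in the fit, 0 genes were called. The numbers of the replicates do not mark a stated pairing, and the deviations of same-numbered tumors correlated at 0.2571, 0.247 and 0.0373, with EMT6-PTR replicate 3 correlating best with EMT6-P replicate 2. With a replicate block, 0 genes were called, and the log2 fold change of Igkc was 1.71, of Ighm -0.61 and of Cd79a 3.67.

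Of 394 log2 fold changes recomputed for members and named genes, 363 kept their direction and their side of the threshold and 27 turned. With 1 primary tumor left out, Igkc ran from -0.44 to 5.02, Ighm from -0.72 to 0.31, Bcl6 from -0.14 to 0.08, Mybl1 from -0.3 to 0.23, Slamf7 from -0.39 to 1.85 and Igha from -1.21 to 1.39. Without a filter, Pax5 ran from -0.51 to 3.1, Jchain from -0.63 to 3.9, Ighd from -0.55 to 2.07, Ighg2b from -3.24 to 7.12, Ighg2c from -1.4 to 2.25, Iglc1 from -0.54 to 2.66, Iglc2 from -3.62 to 1.24 and Iglc3 from -3.25 to 1.32. With limma-voom, Igha was -0.05, Ighd -0.17, Iglc1 0.25, Iglc2 -0.3 and Iglc3 -0.23. Iglc1 was 0.01 with DESeq2, and with the replicate block Iglc1 was 0.28, Iglc2 -0.12 and Iglc3 -0.04. The difference in the effective number of segments ran from -1.22 to 3.5 for Igkv and from -0.0385 to 6.78 for Ighv, both lowest without EMT6-PTR replicate 2. For Igkv, the restriction to segments with at least 10 counts gave no value, since a tumor had no such counts left. Scaled by total estimated counts, the metastasis was 4.05-fold (Ighm), 11.7-fold (Igkc) and 14.9-fold (Jchain) above the EMT6-PTR mean, so that 6 members lay past 4-fold. Members with under 10 counts in most tumors are limited by depth.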
